A study of Homo sapiens with 34 samples.

Results

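Anti-H3K9me CUT&Tag peaks were examined in 10 genes that mark or drive the mesenchymal state, out of 19974 protein-coding genes, in 2 cancer cell lines. The genes were VIM, CDH2, FN1, ZEB1, ZEB2, TWIST1, SNAI2, AXL, CAV1 and ACTA2, given by name and found by symbol in the RefSeq gene table. A gene was counted as having a peak in a library when a peak overlapped the gene or the 2 kb on either side of it. In all, 183 of the 1034303 peaks in the 34 deposited lists did so, 108 in PC3 DM and 75 in COLO320 DM.

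PC3 DM, a line from a prostatic adenocarcinoma, was compared with COLO320 DM, a line from a colorectal adenocarcinoma, and differences are PC3 DM minus COLO320 DM. PC3 DM had 16 libraries, with 3 each after sgRNA plasmids named ecSE1, ecSE2, ecSE6 and ecSEcombo, 2 after ecSE7 and 2 after the vector. COLO320 DM had 18 libraries, 3 each after ecSE1, ecSE2, ecSE3, ecSE4, ecSEcombo and the vector. Every well received 700 ng of plasmid by lipofection, cells were collected 3 days later, and CUT&Tag, in which an antibody guides a transposase to the chromatin it binds, was run on 50000 nuclei. The study concerns extrachromosomal DNA (ecDNA) and CRISPR-based epigenomic perturbation of it, and the name ecSE is not spelled out in the labels. The labels do not say which CRISPR effector the cells carried, nor how many methyl groups the antibody reads. The lines were transfected with different Lipofectamine reagents, so line and reagent cannot be told apart.

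In the epithelial-mesenchymal transition, cells lose E-cadherin junctions and gain motility, matrix contacts and a vimentin cytoskeleton. Transcription factors of the SNAI, ZEB and TWIST families drive the change by repressing epithelial genes, and N-cadherin, fibronectin, AXL and caveolin-1 accompany it. PC3 cells are known for mesenchymal features. Methylation of lysine 9 of histone H3 marks repressed chromatin in its di- and trimethylated forms, while the monomethylated form is also found in active genes. A peak list holds no expression values, so neither line could be checked against its marker transcripts here.

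The lists differed in length. PC3 DM lists held 10288 to 102290 peaks with a median of 26527, and COLO320 DM lists held 9385 to 125214 with a median of 18271. A peak lay in a median of 22.8% of protein-coding genes in PC3 DM libraries and 14.4% in COLO320 DM libraries, so more genes have a peak in PC3 DM before any gene is singled out. Each comparison was therefore repeated with equal-length lists, the best 9385 peaks of each library by q-value. The longest lists, PC3 DM ecSEcombo replicate 1 and COLO320 DM ecSE1 replicate 2, stood apart from the rest, and leaving both out is described where it changed a call.

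Of the RefSeq promoter windows on GRCh38.p14, 250 bases before to 50 bases after a transcription start, 19 belonged to 8 of the 10 genes. Of the 19, 1 was overlapped by any peak, a share near the 6.51% of all 22132 windows. Both windows the results turn on are shown 5′ to 3′ on the gene's own strand. The window at the first start of CDH2, chr18:28177081-28177380 on the minus strand, is shown because the recurrent COLO320 DM site described next lies just inside the gene from it, and its 23 CG dinucleotides are in capitals. The CAV1 window, chr7:116526112-116526411 on the plus strand, is the overlapped one, and the 116 bases inside the peak of PC3 DM ecSEcombo replicate 2 are in capitals.
CDH2: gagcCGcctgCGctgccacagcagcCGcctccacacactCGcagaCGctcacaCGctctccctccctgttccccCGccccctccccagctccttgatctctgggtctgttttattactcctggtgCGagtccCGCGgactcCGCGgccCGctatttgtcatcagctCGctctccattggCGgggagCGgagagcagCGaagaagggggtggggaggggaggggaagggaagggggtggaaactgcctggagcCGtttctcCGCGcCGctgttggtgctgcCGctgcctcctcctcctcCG
CAV1: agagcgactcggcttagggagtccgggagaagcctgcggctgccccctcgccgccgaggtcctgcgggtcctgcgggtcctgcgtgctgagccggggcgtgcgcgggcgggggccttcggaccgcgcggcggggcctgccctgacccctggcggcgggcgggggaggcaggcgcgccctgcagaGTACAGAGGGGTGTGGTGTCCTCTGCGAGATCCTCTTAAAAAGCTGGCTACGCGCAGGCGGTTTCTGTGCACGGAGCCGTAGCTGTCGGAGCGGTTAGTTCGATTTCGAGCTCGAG
The CG count of the CDH2 window was ordinary, since the median window held 21 and 46.2% of all windows held at least as many.

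CDH2 encodes N-cadherin, the adhesion protein that replaces E-cadherin as cells become mesenchymal. The first 2 kb of the gene carried a peak in 0 of 16 PC3 DM libraries and in 14 of 18 COLO320 DM libraries. This was the only site of the 10 genes that recurred in at least 8 of 16 PC3 DM or 9 of 18 COLO320 DM libraries. Its 5 kb bin was the only tested bin of the 10 genes that passed between lines, where 3.47% of all 120164 tested bins passed. Counted over the whole gene, a CDH2 peak was found in 15 of 16 PC3 DM libraries and 14 of 18 COLO320 DM libraries (adjusted exact p = 0.538), and all the PC3 DM peaks lay elsewhere in the gene.

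The 14 COLO320 DM peaks lay within chr18:28175273-28176822, on the gene side of the start at position 28177130. Their summits were 488 to 1715 bp into the gene with a median of 682 bp, and the edge nearest to the start was at least 308 bp from it. None of them reached the promoter window printed above. The stretch covered in at least 9 of the 18 COLO320 DM libraries was chr18:28176311-28176651, 341 bp long, and up to 12 libraries covered a single position of it.

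Within 2 kb of the CDH2 start window, all 16 PC3 DM libraries had 0 covered bp. In COLO320 DM, the covered length was 0, 483 and 902 bp after ecSE1, 282, 342 and 704 bp after ecSE2, and 526, 761 and 797 bp after ecSE3. It was 341, 434 and 843 bp after ecSE4, 0, 0 and 222 bp after ecSEcombo, and 0, 697 and 1173 bp after the vector. The vector libraries thus held both the largest COLO320 DM value and a 0, and every ecSE2, ecSE3 and ecSE4 library had a peak. Over the line, COLO320 DM averaged 473 ± 354 bp (SD, n = 18).

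Fisher's exact test on presence, adjusted over all 120164 tested 5 kb bins by Benjamini-Hochberg, gave 0.00029 for the bin chr18:28175001-28180000 (unadjusted p = 2.29e-06). Of all tested bins, 3.47% passed and 2.88% passed with fewer PC3 DM libraries. A test of the start windows with 2 kb on each side, chosen after the bins had been seen, gave an adjusted exact p of 0.00023, where 3.51% of 1110 tested windows passed and 2.61% passed with fewer PC3 DM libraries. The PC3 DM lists had the larger median length and 0 peaks at the site. The shortest list of all, COLO320 DM vector replicate 2 with 9385 peaks, had a peak of 697 bp here, and the PC3 DM list of 102290 peaks had none. The median peak was 348 bp in the first of these lists and 197 bp in the second. The cause of the difference at the CDH2 start was not tested.

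With equal-length lists the start site was found in 0 of 16 PC3 DM and 11 of 18 COLO320 DM libraries, with an adjusted exact p of 0.00176, and 12% of the windows then tested passed with fewer PC3 DM libraries. A bound on −log10 q of at least 5 left all 14 COLO320 DM peaks in place. The 4 COLO320 DM libraries without the peak had lists of 13303 to 22239 peaks. Of 15812 genes with a start window, 4 had peaks beside a start in at least 14 COLO320 DM libraries and in 0 PC3 DM libraries. The other 3, looked up after these values were seen, were B4GALNT2, a glycosyltransferase, IL1R1, the interleukin-1 receptor, and URAD, an enzyme of urate breakdown, each in 18 of 18 COLO320 DM libraries. Copy number of the region in either line was not tested.

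Most of the start peaks were wider than the other peaks of these genes and ranked higher in their own lists, with exceptions. Their widths were 222 to 1173 bp with a median of 612 bp, against a median of 224 bp for the other 169 peaks of the 10 genes. Ranked by q-value, the median place of the start peaks was in the top 21.3% of the list, against the top 54.9% for the other 169. For the start peaks, the authors' fold over local background was 4.25 to 8.28, and −log10 q was 5.07 to 19.5. The best-ranked one, in vector replicate 2, stood within the top 4.68% of its list, and the lowest-ranked ones, in ecSE2 replicate 2 and ecSE4 replicate 2, at 77.0% and 60.5%. By width the widest for its list was within the top 1.96%, and the narrowest, in ecSEcombo replicate 2, stood at 92.8%.

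**Figure D1:**
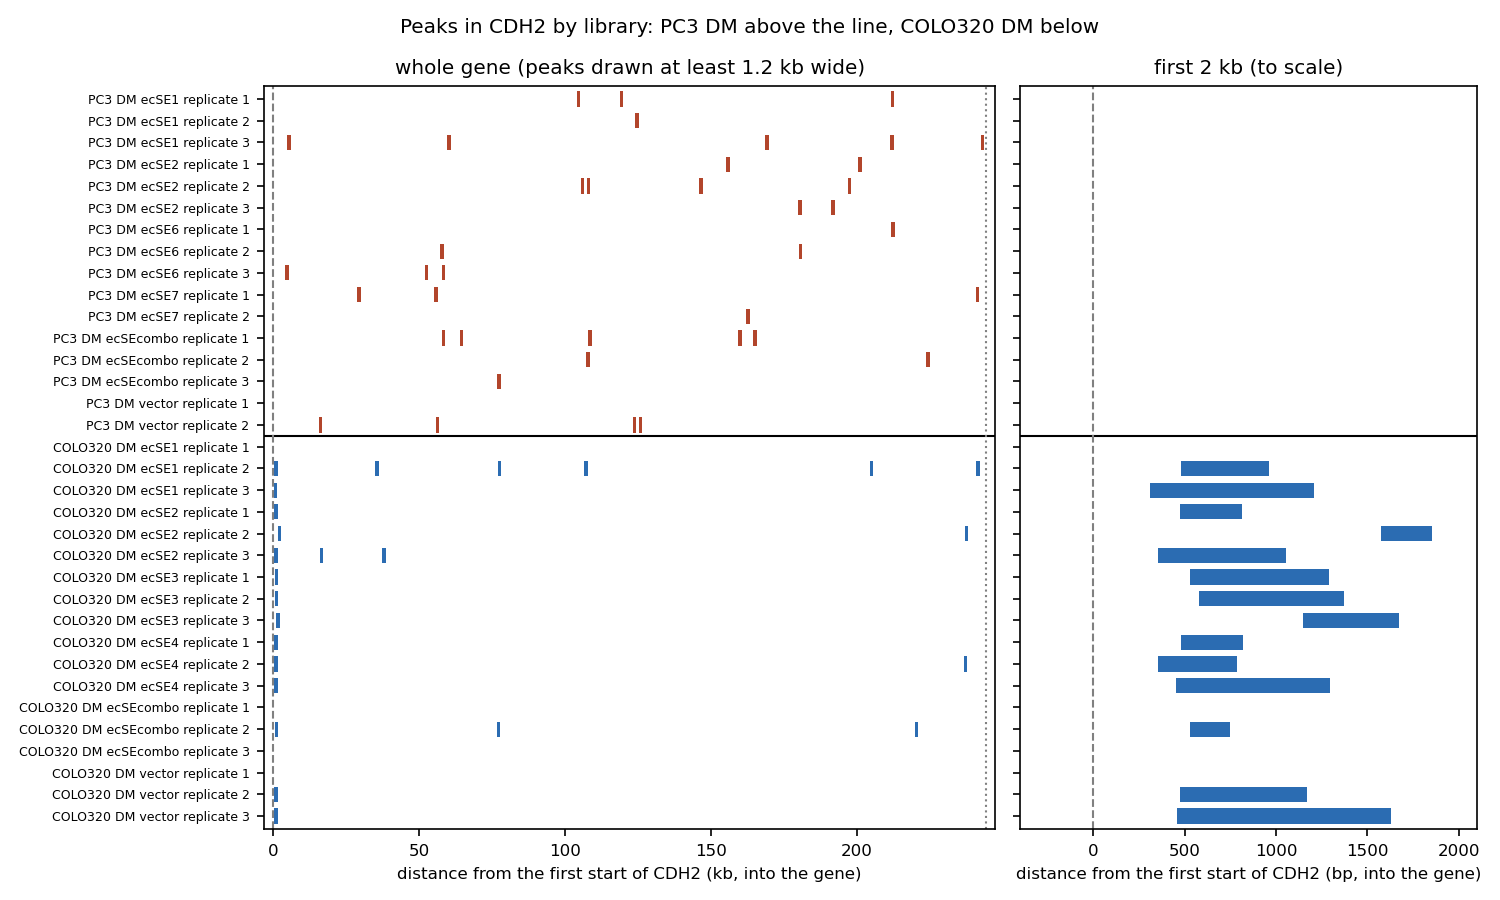
Peaks in CDH2 in each of the 34 libraries, by distance from the first start into the gene: the whole gene in kb on the left, with peaks drawn at least 1.2 kb wide and the dotted line at the gene's end, and the first 2 kb in bp, to scale, on the right. Each row is a library, PC3 DM above the line and COLO320 DM below, with the vector libraries last in each line; 14 COLO320 DM libraries and 0 PC3 DM libraries have a peak in the first 2 kb.

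Elsewhere in CDH2 the peaks were scattered. PC3 DM had 39 peaks along the gene, and no position was covered in more than 2 of its libraries. The PC3 DM peaks nearest to the start, chr18:28172800-28172980 in ecSE6 replicate 3 and chr18:28172125-28172332 in ecSE1 replicate 3, lay beyond the 2 kb around it. COLO320 DM had 11 peaks away from the start, all in 5 libraries. The only other CDH2 site in 3 libraries, chr18:28100041-28100513, was in 1 PC3 DM and 2 COLO320 DM libraries. Of the CDH2 peaks, 7 lay in the antisense gene CDH2-AS1, in 3 PC3 DM and 4 COLO320 DM libraries, and CUT&Tag does not tell which gene of such a pair a peak belongs to.

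Covered length over CDH2 and its flanks ran from 0 to 4.13 bp per kb in PC3 DM libraries with a median of 2.49, and from 0 to 5.72 bp per kb in COLO320 DM libraries with a median of 2.94. The ranges overlapped almost wholly. The means were 2.33 ± 1.17 bp per kb in PC3 DM (SD, n = 16) and 2.62 ± 1.84 bp per kb in COLO320 DM (SD, n = 18), with an adjusted permutation p of 0.748. With equal-length lists the means were 0.50 ± 0.73 bp per kb in PC3 DM and 1.88 ± 1.45 bp per kb in COLO320 DM, a difference of −1.38 with an adjusted permutation p of 0.0107, where 23.9% of 4935 tested genes passed. With −log10 q of at least 5 the difference was −1.52 bp per kb (adjusted permutation p = 0.0149). By presence with equal-length lists CDH2 had a peak in 6 PC3 DM and 14 COLO320 DM libraries, which did not pass (adjusted exact p = 0.144, with 13.3% of 4711 tested genes passing).

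CAV1 encodes caveolin-1, the coat protein of the membrane pits called caveolae. A peak lay in CAV1 in 7 of 16 PC3 DM libraries and 1 of 18 COLO320 DM libraries, the widest gap of the 10 genes by presence over the whole gene, at 38.2 percentage points. In PC3 DM the covered length was 8.44 and 6.02 bp per kb in ecSE1 replicates 1 and 3, 5.30 in ecSE2 replicate 2, 4.90 in ecSE6 replicate 3, 20.3 and 15.0 in ecSEcombo replicates 1 and 2, and 4.23 in vector replicate 2. In COLO320 DM it was 4.43 bp per kb in ecSE1 replicate 2, which is the longest of all lists. The other 9 PC3 DM and 17 COLO320 DM libraries were at 0, so the lines overlapped at 0. In PC3 DM, the lists with a CAV1 peak held 102290, 58545, 55455, 53747, 48372, 42953 and 24255 peaks. The longest PC3 DM list without one held 33651. The highest CAV1 value, 20.3 bp per kb, came from the longest PC3 DM list. The part of list length in the CAV1 difference was not tested.

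The mean covered length of CAV1 was 4.02 ± 6.10 bp per kb in PC3 DM (SD, n = 16) and 0.25 ± 1.04 bp per kb in COLO320 DM (SD, n = 18). The permutation test with 100000 resamples gave an adjusted p of 0.0437 over 10703 tested genes (unadjusted p = 0.00593), the only one of the 8 tested members to pass. Of all tested genes 14.8% passed, 9.54% with the higher value in PC3 DM and 5.26% with the lower, so a call of this kind was common. By presence CAV1 did not pass (adjusted exact p = 0.0992), but it passed without the 2 longest lists, by 40.0 points (adjusted exact p = 0.0447), and without COLO320 DM ecSE1 replicate 2 alone, by 43.8 points (adjusted exact p = 0.0270).

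The CAV1 call sat at the edge of the threshold. It was lost when any 1 of 19 libraries was left out, with adjusted permutation p of 0.05 to 0.0846. These were PC3 DM ecSE1 replicates 1 and 3, ecSE2 replicate 2, ecSE6 replicate 3 and ecSEcombo replicates 1 and 2, and 13 COLO320 DM libraries, namely all except vector replicates 1 and 2, ecSE1 replicates 1 and 2 and ecSEcombo replicate 1. Without the combination libraries of both lines the difference was 1.93 bp per kb (adjusted permutation p = 0.157), against 3.77 with them. The call by covered length was also lost with the replicate number as a block (adjusted permutation p = 0.0507) and with −log10 q of at least 5 (2.40 bp per kb, adjusted permutation p = 0.213). With equal-length lists 1 PC3 DM and 0 COLO320 DM libraries had a CAV1 peak and no test was made.

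The 11 CAV1 peaks were 168 to 613 bp wide and did not pile up. At 2 places, chr7:116537389-116537704 and chr7:116537869-116538403, peaks of 2 PC3 DM libraries touched, and no place had more. The CAV1 bin with peaks in the most libraries of a single line, chr7:116535001-116540000, had them in 4 PC3 DM and 1 COLO320 DM libraries (adjusted exact p = 0.427). The peak over the printed promoter window, chr7:116526296-116526597, was in PC3 DM ecSEcombo replicate 2 alone, with a fold of 5.35 and −log10 q of 4.67.

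**Figure D2:**
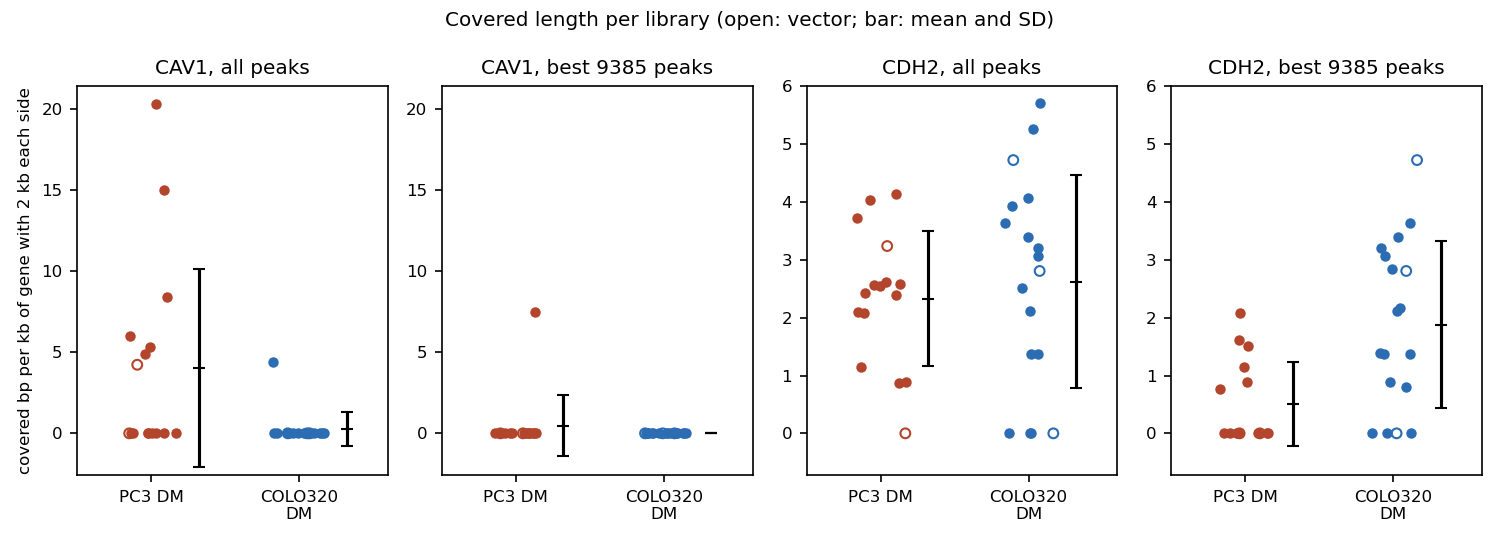
Covered length of CAV1 and CDH2 in bp per kb of the gene with 2 kb on each side, in all lists and in lists cut to their best 9385 peaks; each point is a library, open points are vector libraries, and bars give the mean and SD of 16 PC3 DM and 18 COLO320 DM libraries. CAV1 is above 0 in 7 PC3 DM libraries and 1 COLO320 DM library with all peaks, and in equal-length lists CDH2 averages 0.50 in PC3 DM and 1.88 in COLO320 DM.

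AXL, a receptor tyrosine kinase whose ligand is GAS6, had a peak in 2 of 16 PC3 DM and 2 of 18 COLO320 DM libraries. The covered length was 7.37 bp per kb or less in PC3 DM and 5.65 bp per kb or less in COLO320 DM, with a median of 0 in both. No AXL peak overlapped another, and no equal-length list held one.

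Among the transcription factors, ZEB1 had the most libraries with a peak. ZEB1 and ZEB2 encode zinc-finger factors that repress the E-cadherin gene CDH1. A ZEB1 peak was found in 14 of 16 PC3 DM and 13 of 18 COLO320 DM libraries (adjusted exact p = 0.617). Covered length ran from 0 to 7.81 bp per kb with a median of 1.97 in PC3 DM, and from 0 to 15.1 bp per kb with a median of 1.69 in COLO320 DM. The lines overlapped throughout, and the highest value in each came from its longest list. With equal-length lists, 5 PC3 DM and 6 COLO320 DM libraries kept a ZEB1 peak.

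ZEB1 held 2 sites seen in more than 1 library of both lines. Peaks at chr10:31506031-31506781, inside the gene, were in 4 PC3 DM and 3 COLO320 DM libraries, which included the longest list of each line. The second site, chr10:31442259-31443086, was in 2 PC3 DM and 3 COLO320 DM libraries, which included the longest COLO320 DM list. The sites chr10:31448733-31449286 and chr10:31475000-31475761 were in 0 PC3 DM libraries and in 4 and 3 COLO320 DM libraries, of which the second included the longest list. The ZEB1 bin with a peak in the most libraries of a single line, chr10:31445001-31450000, had one in 1 PC3 DM and 5 COLO320 DM libraries and did not pass (adjusted exact p = 0.456). The bins with the most libraries over both lines, 7 each, were chr10:31440001-31445000, with 3 PC3 DM and 4 COLO320 DM libraries, and chr10:31505001-31510000, with 4 PC3 DM and 3 COLO320 DM libraries (adjusted exact p = 1 and 0.857).

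ZEB2 had a peak in 6 of 16 PC3 DM and 3 of 18 COLO320 DM libraries (adjusted exact p = 0.463), and in 1 PC3 DM and 2 COLO320 DM libraries with equal-length lists. Covered length reached 6.43 bp per kb in PC3 DM and 8.06 bp per kb in COLO320 DM. All 3 PC3 DM ecSE2 libraries had a ZEB2 peak, and in replicates 1 and 3 these peaks overlapped, at chr2:144416301-144416756. Of the 7 ZEB2 peaks of COLO320 DM, 5 came from the longest list.

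TWIST1, a basic helix-loop-helix factor, had a peak in 3 of 16 PC3 DM and 3 of 18 COLO320 DM libraries. Since the gene is short, single peaks gave high covered lengths, up to 36.4 bp per kb in PC3 DM and 48.4 bp per kb in COLO320 DM. The 6 peaks lay at 6 separate places. The bin chr7:19110001-19115000 had a peak in 3 PC3 DM and 0 COLO320 DM libraries, and the next, chr7:19115001-19120000, in 1 PC3 DM and 3 COLO320 DM libraries (adjusted exact p = 0.286 and 0.805); these bins also count peaks more than 2 kb from the gene. SNAI2, the zinc-finger factor also called Slug, had a single peak, of 205 bp, in PC3 DM vector replicate 2, and none in COLO320 DM.

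The cytoskeleton and matrix genes had few peaks. VIM, the intermediate filament protein vimentin, had none in PC3 DM and a single peak of 400 bp in COLO320 DM ecSE4 replicate 1, at chr10:17233291-17233690. ACTA2, smooth muscle actin, had a peak in 2 PC3 DM and 2 COLO320 DM libraries, and both COLO320 DM peaks lay where the gene FAS overlaps it. FN1, the matrix protein fibronectin, had a peak in 6 of 16 PC3 DM and 3 of 18 COLO320 DM libraries (adjusted exact p = 0.463). FN1 covered length reached 7.59 bp per kb in PC3 DM and 3.02 bp per kb in COLO320 DM, and its 10 peaks lay at 10 separate places.

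Taking the 10 genes by presence, 0 of the 8 tested passed between the lines (Fisher's exact test, adjusted over 10067 genes), where 6.99% of all tested genes passed, 5.74% higher and 1.25% lower in PC3 DM. VIM and SNAI2 had a peak in too few libraries to be tested. Of the 8, CAV1 alone had an unadjusted exact p under 0.05 (p = 0.0145). The share of libraries with a peak was higher in PC3 DM for 9 of the 10 and lower for 1. Over all 19974 protein-coding genes it was higher for 12449 and lower for 3158, and 4048 had no peak in any library. The median difference was 10.8 points for the 10 and 6.25 points over all protein-coding genes. The 10 are longer genes, with a median length of 49404 bp against 24170.5 bp over all protein-coding genes. A library held a peak in 1 to 6 of the 10 genes in each line, with a median of 4 in PC3 DM and 2 in COLO320 DM. With equal-length lists it was 0 to 3 genes in both lines and a median of 1 in both.

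Gene length varied widely among the 10. CDH2, of 244252 bp, and ZEB1, of 211388 bp, are the longest of the 10 and had a peak in the most libraries, while SNAI2, of 3832 bp, and VIM, of 9353 bp, had 1 peak each. TWIST1, of 4590 bp, had 6. Merged across libraries, the 183 peaks made 138 sites, of which 117 were seen in 1 library, 15 in 2 and 6 in 3 or more. A site recurrent in at least 8 of 16 libraries lay in 2.45% of protein-coding genes in PC3 DM, against 0 of the 10, and one in at least 9 of 18 libraries lay in 6.18% in COLO320 DM, against 1 of the 10. With equal-length lists the shares of all genes were 1.79% and 4.36%, and with only 6 libraries required in either line they were 4.03% and 9.14%. The count among the 10 genes stayed at 0 in PC3 DM and 1 in COLO320 DM in both cases.

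**Figure D3:**
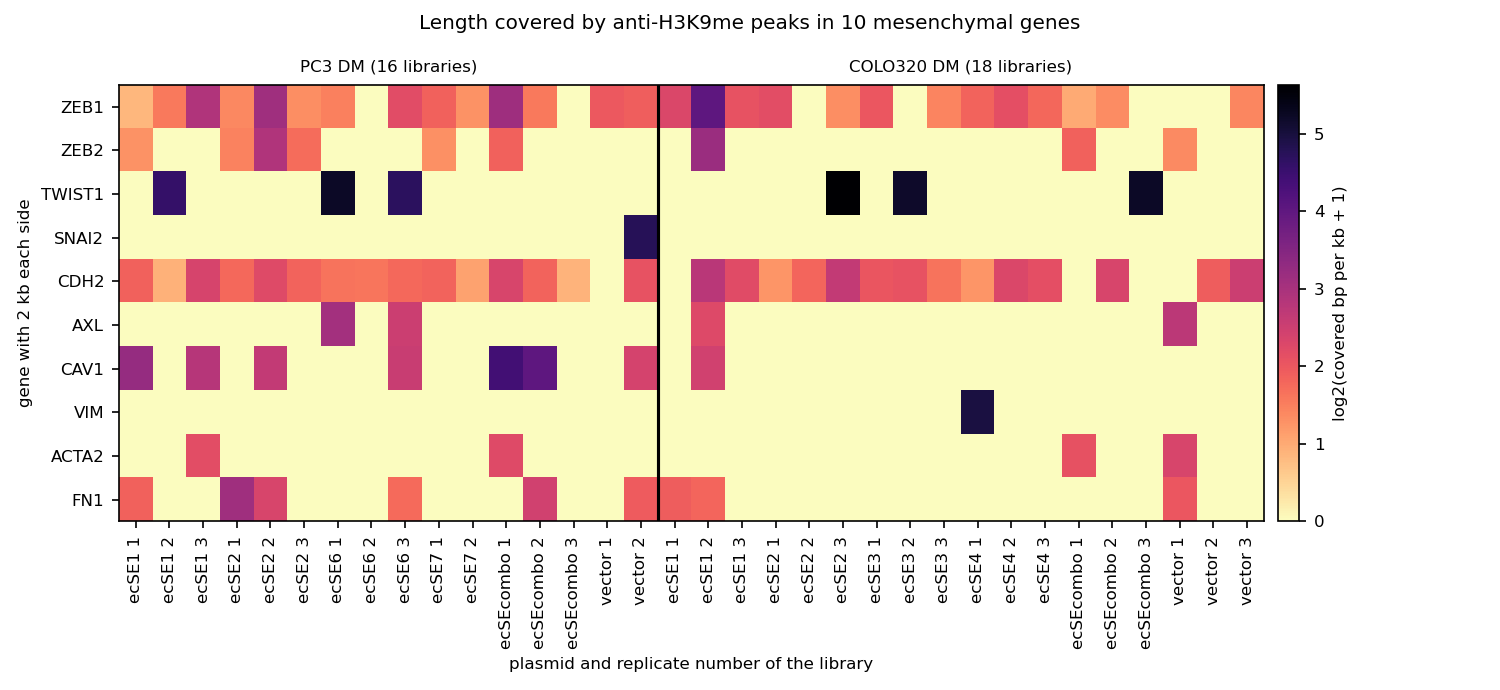
Length covered by peaks in each of the 10 genes with 2 kb on each side, as log2 of covered bp per kb plus 1, with 1 column per library, 16 of PC3 DM left of the line and 18 of COLO320 DM right of it, the vector libraries last in each. ZEB1 and CDH2 are covered in most libraries of both lines, CAV1 in 7 PC3 DM libraries and 1 COLO320 DM library, and VIM and SNAI2 in 1 library each.

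**Figure D4:**
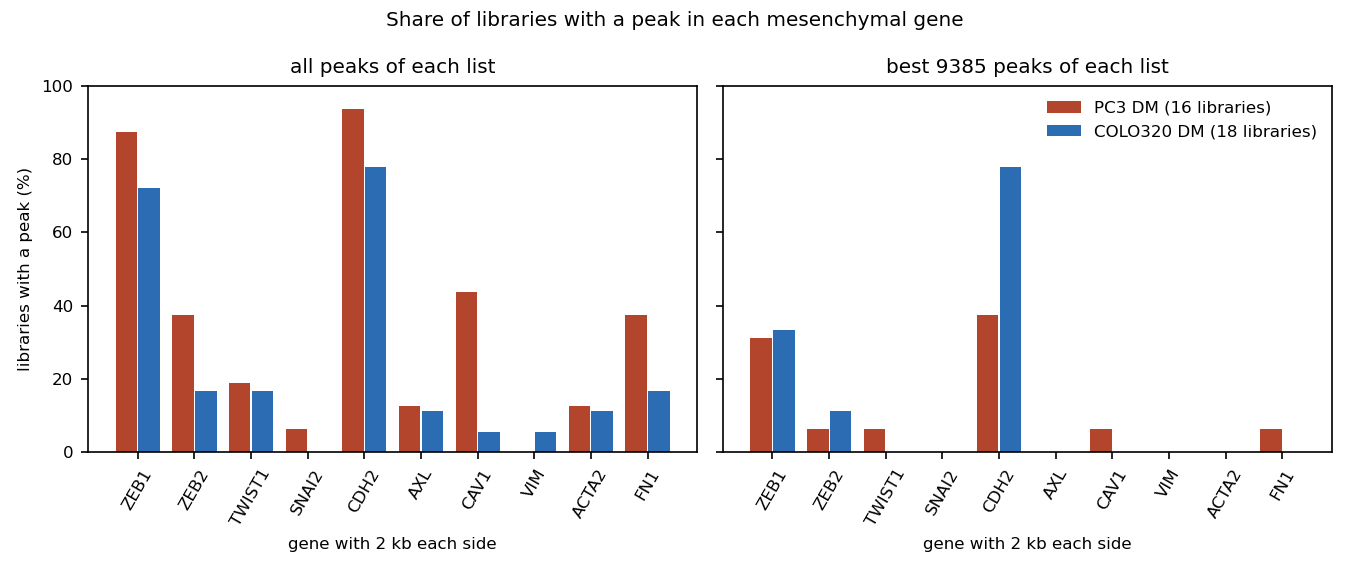
Share of the 16 PC3 DM and 18 COLO320 DM libraries with a peak in each gene, in percent, with all peaks on the left and the best 9385 peaks of each list on the right. With equal-length lists CDH2 is found in 6 PC3 DM and 14 COLO320 DM libraries, and VIM, SNAI2, AXL and ACTA2 are found in none.

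Other genes of the same program were set beside these. Of 52 further mesenchymal genes, 34 could be tested by presence and 2 passed, both higher in PC3 DM, where 6.99% of all tested genes passed and 5.74% passed higher, so the list was near the background. They were COL5A2, a fibrillar collagen chain, with a peak in 16 of 16 PC3 DM and 8 of 18 COLO320 DM libraries (adjusted exact p = 0.0142), and CALD1, the actin-binding protein caldesmon, in 14 of 16 and 5 of 18 (adjusted exact p = 0.0194). With equal-length lists COL5A2 passed, in 14 PC3 DM and 2 COLO320 DM libraries (adjusted exact p = 0.000558), and CALD1 did not, in 7 and 1 (adjusted exact p = 0.0852). In that setting 13.3% of 4711 tested genes passed by presence. By covered length 4 of the 34 passed, all higher in PC3 DM, against 14.8% of all tested genes and 9.54% higher, the others being the TGF-beta receptors TGFBR1 and TGFBR2, with peaks in 6 and 10 PC3 DM libraries and in 0 and 3 COLO320 DM libraries. By covered length in equal-length lists COL5A2 passed, CALD1 and TGFBR2 did not (adjusted permutation p = 0.0588 and 0.196), and TGFBR1 was not tested. There 23.9% of 4935 tested genes passed.

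Of 32 epithelial genes, 16 could be tested and 0 passed by presence, where 6.99% of all tested genes passed. By covered length 2 of the 16 passed, both lower in PC3 DM, against 14.8% of all tested genes and 5.26% lower. GRHL2, a transcription factor that maintains epithelial genes, averaged 3.48 ± 2.67 bp per kb in PC3 DM and 9.06 ± 6.38 bp per kb in COLO320 DM (SD, n = 16 and 18, adjusted permutation p = 0.0196). PKP3, a desmosome protein, averaged 0.80 ± 3.22 bp per kb in PC3 DM and 10.1 ± 12.5 bp per kb in COLO320 DM (SD, n = 16 and 18, adjusted permutation p = 0.0434). With equal-length lists GRHL2 passed by presence, in 5 PC3 DM and 15 COLO320 DM libraries (adjusted exact p = 0.0399), and by covered length (adjusted permutation p = 0.0172), while PKP3 did not pass by covered length (adjusted permutation p = 0.0696). Among all genes tested with equal-length lists, 13.3% passed by presence and 23.9% by covered length. The median difference in the share of libraries was 7.99 points for the further mesenchymal genes, 0 points for the epithelial genes and 6.25 points for all protein-coding genes. The lists also differed in gene length, with medians of 36258.5 bp, 16746 bp and 24170.5 bp in that order. No library had a peak in 9 of the 52 mesenchymal, 10 of the 32 epithelial and 4048 of all 19974 genes. The part of gene length in these medians was not tested.

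The study's own contrast, perturbed against vector within a line, gave no called change in those of the 10 genes that could be tested. VIM, SNAI2, AXL and ACTA2 could be tested in neither line, and CAV1 could not be tested in COLO320 DM. In PC3 DM, CDH2 and ZEB1 could be tested by covered length but not by presence. In PC3 DM, a peak was found in 14 of 14 perturbed and 1 of 2 vector libraries for CDH2, in 12 and 2 for ZEB1, in 6 and 1 for CAV1, in 5 and 1 for FN1, and in 6 and 0 for ZEB2. In COLO320 DM, it was found in 12 of 15 perturbed and 2 of 3 vector libraries for CDH2, in 12 and 1 for ZEB1, in 1 and 0 for CAV1, in 2 and 1 for FN1, and in 2 and 1 for ZEB2. By Fisher's exact test, 0 of 7812 genes in PC3 DM (0%) and 0 of 4621 in COLO320 DM (0%) passed, with 67 and 49 at an unadjusted p under 0.05. By the exact permutation test of covered length, 0 of 9198 and 0 of 5749 passed, with 161 and 125 at an unadjusted p under 0.05. With 2 and 3 vector libraries the tests had little room. The smallest unadjusted permutation p among all genes, 0.00833 in PC3 DM and 0.00123 in COLO320 DM, is the lowest that these library numbers allow. By Fisher's exact test the smallest was 0.025 in PC3 DM and 0.00123 in COLO320 DM. A single gene at such a value could not pass after adjustment over all tested genes, so the absence of calls does not show an absence of change.

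The effect of perturbation on covered length was also compared between the lines. Of 10703 genes 0 passed (0%), 245 had an unadjusted permutation p under 0.05, and the smallest adjusted p over all genes was 0.428. For ZEB1 the means were 2.80 ± 2.62 bp per kb in perturbed and 2.86 ± 0.18 in vector libraries of PC3 DM (SD, n = 14 and 2), and 2.87 ± 3.62 in perturbed and 0.55 ± 0.95 in vector libraries of COLO320 DM (SD, n = 15 and 3). For CDH2 they were 2.43 ± 1.04 in perturbed and 1.62 ± 2.29 in vector libraries of PC3 DM, and 2.65 ± 1.82 in perturbed and 2.51 ± 2.38 in vector libraries of COLO320 DM. Each of these differences was smaller than the SD of the perturbed libraries.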

How the data were processed

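CUT&Tag libraries with an anti-H3K9me antibody were available as 34 peak lists, each from a single library, in hg38 coordinates. The submitters' processing notes name MACS2 2.2.7.1, Bowtie2 2.3.5, Trim Galore 0.6.6, bedtools and SAMtools. By the lists' names, the authors kept peaks at an FDR of 0.001 and took out blacklisted regions. Each deposited list gives, per peak, the authors' display score (not used), the authors' fold ratio over local background, and the authors' −log10 p-value and −log10 q-value, which served only to order peaks or set a bound within each list. Read depth is unknown, and a missing peak means only that none passed the authors' threshold.

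Groups came from the titles. The labels do not tie replicates to separate cultures; the spread behind each p-value could therefore be technical.

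Gene positions and promoter windows were RefSeq on GRCh38.p14. Exon and UTR positions were not used here. Presence of a peak was tested by Fisher's exact test, and covered bp per kb by a permutation of libraries with 100000 resamples between lines and by exact permutation within a line, all two-sided, over genes, 5 kb bins or start windows with a peak in at least 3 libraries. Presence tests also needed at least 3 libraries without a peak. Benjamini-Hochberg adjustment ran over all tested features at a threshold of 0.05. On simulated presence data with 10067 genes, all 100 completely separated genes and 55% of those differing by 60 points were called, with 59 of 9867 unchanged genes called; covered length called 31.5% at 60 points. For start windows 10 of 10 and 60% were called, and for bins 100 of 100 and 13%. Simulated windows and bins all had the same low share of libraries, apart from 10 windows or 100 bins set at each difference. In the data 4173 bins passed, so the simulated rates for windows and bins need not hold there.

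The 10 genes, the further mesenchymal and epithelial lists and the tests were chosen with earlier results of these data known. All 10 genes are named, with the bin that had a peak in the most libraries of either single line where a bin was tested, and from the 2 further lists each gene that passed. The start-window test was added after the bins were seen. Alternatives were equal-length lists, a q-value bound, other flanks, overlaps and bins, a replicate block, and leaving out libraries. The tests used scipy 1.17.1 with numpy 2.4.6 and pandas 2.3.3 in Python 3.11.15, and figures were drawn with matplotlib 3.10.9.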

Additional observations from a re-analysis of the deposited data

How the results depend on the processing

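The CDH2 start difference, −77.8 points, kept its direction and side of the threshold under every alternative run, from −61.1 with equal-length lists to −86.7 without the combination libraries, and from −82.4 to −76.5 leaving out each library. The called 5 kb bin count was 1 throughout, leave-one-out included, except 2 with 1 kb bins.

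The count of the 10 genes called by covered length, 1, was 0 with the replicate block and without the combination libraries, and ranged from 0 to 1 leaving out each library. It was also 0 with vector libraries alone, but there the smallest possible permutation p is 0.1, so no gene could pass. The call was CAV1, at 3.77 bp per kb. The count stayed at 1 with equal-length lists and with −log10 q of at least 5, but the gene called there was CDH2, at −1.38 and −1.52 bp per kb (adjusted permutation p = 0.0107 and 0.0149), and not CAV1. Its adjusted permutation p was 0.0507 with the replicate block, 0.157 without the combination libraries and 0.213 with −log10 q of at least 5. The count called by presence, 0, was 1 without the 2 longest lists (CAV1, adjusted exact p = 0.0447) and 1 with 2 kb around either gene end (CDH2, −71.5 points, adjusted exact p = 0.0036), and ranged from 0 to 1 leaving out each library: CAV1 passed without COLO320 DM ecSE1 replicate 2.

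Libraries sharing a replicate number were only weakly correlated in their deviations. For PC3 DM the correlations ran from −0.0475 to 0.0614. Their median was −0.0014, while differently numbered pairs had 0.0002, and 3 of 16 libraries correlated best with their own number. For COLO320 DM they ran from −0.0756 to 0.127. There the median was 0.0119, higher than the −0.0066 of differently numbered pairs, and 10 of 18 libraries correlated best with their own number. Whether these counts exceed chance was not tested. The replicate block, with numbers that the labels do not tie to a shared culture, left the presence count at 0, the bin count at 1 and the CDH2 start at −77.8 points (adjusted exact p = 0.0004).

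Several uncalled PC3 DM minus COLO320 DM differences changed sign; the cause was not tested. In shares, equal-length lists gave −40.3 points for CDH2, −2.08 for ZEB1 and −4.86 for ZEB2; −log10 q of at least 5 gave −21.5 for CDH2 and −10.4 for TWIST1; leaving out the 2 longest lists gave −5.10 for ACTA2, and the gene without flanks −4.86; 2 kb around either end gave −71.5 for CDH2 and −5.56 for ZEB2; an overlap of 500 bp gave −0.69 for ZEB1; and vector libraries alone gave −16.7 for CDH2 and −33.3 for ZEB2, AXL and ACTA2. In covered bp per kb, equal-length lists gave −0.15 for ZEB1, −0.049 for ZEB2 and 1.43 for TWIST1; the q-value bound −0.39 for ZEB1; leaving out the combination −0.11 for ZEB1, 0.88 for TWIST1 and −0.0043 for ACTA2; leaving out the 2 longest lists −0.20 for ACTA2; vector libraries alone −0.54 for ZEB2, −1.88 for AXL and −1.36 for ACTA2; scaling by total covered length 1.82 for TWIST1 and −0.45 for ACTA2; and no flanks 4.89 for TWIST1 and −0.20 for ACTA2. Leaving out each library, the shares ran from −3.33 to 6.99 points for TWIST1 and from −4.44 to 6.62 for both AXL and ACTA2, and covered lengths from −0.0090 to 1.06 for ZEB1, −0.045 to 0.75 for ZEB2, −3.50 to 1.03 for TWIST1, −0.21 to 0.53 for AXL and −0.18 to 0.25 for ACTA2.

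Depth per library is unknown and the lists differ in length, and a gene without a peak had no signal past the authors' threshold, which is not an absence of the mark.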
